A study of Mus musculus with 18 samples.

Results

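Liver of high-fat diet-resistant mice (HR) was compared with liver of mice on a normal diet (ND), across every gene that reached 1 FPKM in at least 3 of the 9 liver libraries. FPKM is a read count scaled by transcript length and by the reads of the library. This rule kept 10633 of the 23474 genes in the table. By their third-highest liver value, Wdr47 and Cnr2 lay just inside it at 1.00 FPKM, and Plcxd2 at 0.9996 and Trim5 at 0.999 FPKM lay just outside. The series holds 18 mRNA libraries, 3 in each of 6 groups, from liver and from epididymal adipose tissue, which is not used here.

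The HR mice were male C57BL/6J, a strain spelled C56BL/6J in the strain label, aged 17 weeks, given a high-fat diet from an age of 5 weeks for 12 weeks and called resistant to it. High-fat diet-prone mice (HP) had the same strain, sex, age and time on diet and were called prone. The ND mice shared strain, sex, age and feeding time, and ate a normal diet. The labels describe a random division of individually housed mice, 10 to a group, and not how prone and resistant mice were told apart, which fat the diet held, the hour of death or whether mice had been fasted. Nor do they say whether every library is a separate mouse, and the p-values cover the spread of these libraries only, part of which may be technical. HR and HP mice differ from ND in diet, so diet and resistance cannot be told apart in HR against ND. The comparison of HR with HP, on the same diet, was fitted beside it.

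In liver, SREBP2 drives the genes of cholesterol synthesis and uptake when membranes run low in sterol, and SREBP1c, under insulin, drives those of fatty acid synthesis. PPAR alpha drives the burning of fatty acids, above all in fasting. When unfolded proteins build up in the endoplasmic reticulum (ER), XBP1 and ATF6 raise the chaperones that fold them.

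Relative depths, read from the smallest steps of low values, were 0.883 to 1.10 against ND 2, and absolute depth is unknown. Across genes, HR libraries correlated with each other at 0.986 to 0.988, with ND libraries at 0.970 to 0.982 and with HP libraries at 0.949 to 0.983. Of the hepatocyte markers Alb, the serum albumin gene, had 27463, 28319 and 24182 FPKM in HR 1 to 3 and 23684, 21466 and 26495 in ND 1 to 3. Of the 9 hepatocyte markers tested, 6 were higher in HR than ND and 3 lower, and none passed the test. Those lower included Cps1 and Tat, with log2 differences of -0.50 and -0.56. Summed hepatocyte markers, of which Alb is the largest part, were 35691 to 41326 FPKM in HR and 32715 to 37226 in ND. In HP 3, Alb and the mitochondrial gene mt-Co1 were listed at 0 against at least 21466 and 29610 FPKM elsewhere, which for genes that every liver uses can be a failed estimate. In bulk tissue, fewer cells of a type and less RNA per cell cannot be told apart. Summed endothelial markers were 83.8 to 108 FPKM in HR and 112 to 159 in ND, and those of stellate cells and fibroblasts 111 to 179 and 164 to 220, and no member of either list passed the test. Summed T, NK and B cell markers were 7.04 to 7.46 FPKM in HR and 8.70 to 10.3 in ND. Of these 14 markers 1 passed the filter, Ighm, at 3.21 to 3.26 FPKM in HR and 3.61 to 4.56 in ND, and the others were low. Summed macrophage markers overlapped, at 107 to 274 FPKM in HR and 146 to 194 in ND.

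By limma on log2(FPKM + 1), two-sided, at a Benjamini-Hochberg adjusted p of 0.05 over all genes tested, 242 genes were higher in HR than ND (2.28% of those tested) and 103 were lower (0.969%), 345 in all (3.24%). The difference exceeded 1 on the log2 scale for 70 higher genes and fell below -1 for 32. With quantile normalization 184 were higher and 124 lower. Groups that did not overlap were more frequent, with 14.8% of genes higher and 11% lower in all 3 HR libraries. Genes with the largest differences included ones of sugar and lipid metabolism, the clock and secreted proteins, and many single calls were lost when 1 library was left out. Without ND 1 the count was 91, without ND 3 160, without HR 1 134, without HR 2 123 and without HR 3 137. Of 75 named genes that passed, 33 still passed without any 1 library, and most of the others are given with the libraries concerned.

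**Figure D1:**
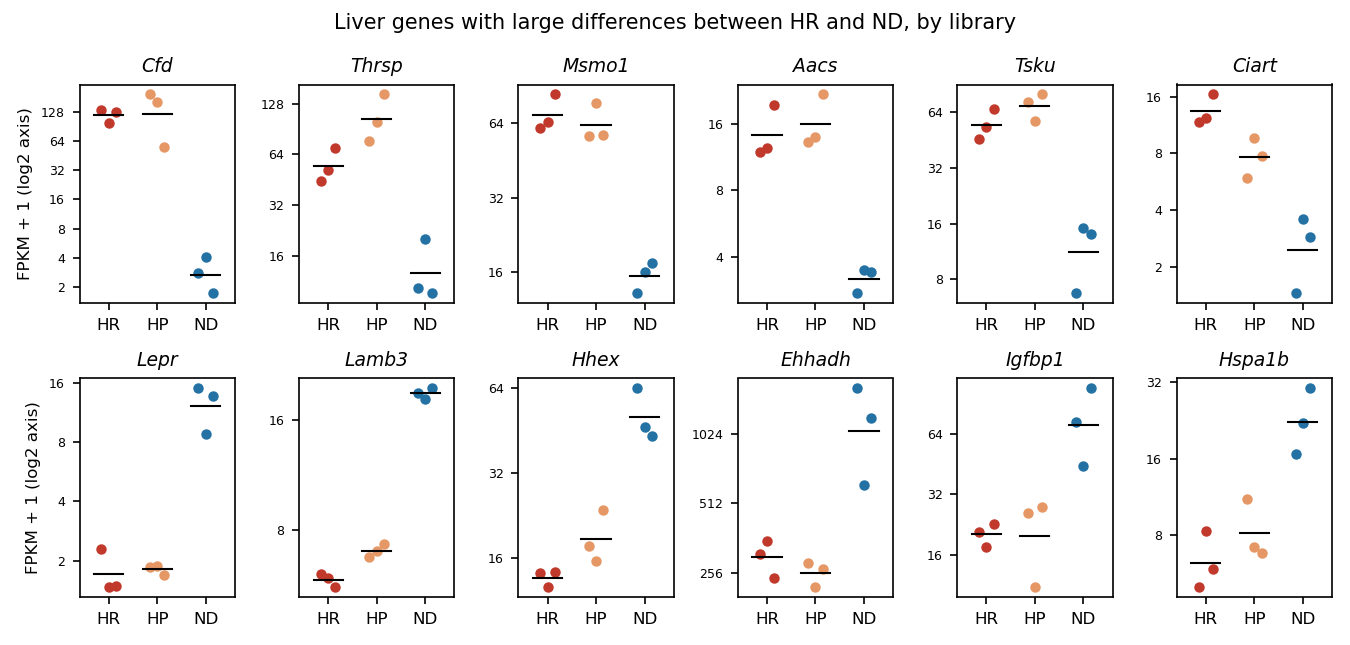
FPKM + 1 on a log2 axis for 12 genes in the 3 HR, 3 HP and 3 ND liver libraries, with each point a library and each line the mean on the log scale. The upper row holds genes that were higher in HR than ND and the lower row genes that were lower. The genes were chosen among called ones whose HR and ND groups do not overlap, so the lack of overlap in the panels follows from the choice.

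The largest rise was that of Cfd (ENSMUSG00000061780), which encodes adipsin, the protease that activates complement factor B and a major product of fat cells. Cfd had 134, 96.3 and 126 FPKM in HR 1 to 3, 193, 162 and 54.7 in HP 1 to 3 and 1.78, 3.11 and 0.7201 in ND 1 to 3. Every HR library lay far above every ND library, and HR minus ND was 5.46 on the log2 scale (SE 0.42, limma adjusted p = 0.000151). HR and HP overlapped, at a difference of -0.03 (SE 0.42, adjusted p = 0.975). Adipsin marks adipocytes, so the other adipocyte markers are given beside it. Whether fat cells had a part in the Cfd values was not tested. Adipoq and Lep, which define fat cells, were listed at 0 in all HR and ND libraries. In HP 1, the library with the highest Cfd, Adipoq had 1.399 and Lep 0.723 FPKM, in HP 3 they had 0.174 and 0, and in HP 2 both were listed at 0. Beside this, the 10 adipocyte markers without Cfd and Car3 summed to 63.3 to 77.8 FPKM in HR, 131 to 175 in HP and 51.3 to 82.2 in ND. Of these sums Cidec, a droplet gene, held 29.3 to 32.7 FPKM in HR, 71.8 to 115 in HP and 28.8 to 55.04 in ND. Car3, a carbonic anhydrase that is abundant in both fat and liver, had 2189, 2256 and 2512 FPKM in HR and 669, 1620.2 and 1040.3 in ND (HR minus ND 1.15, SE 0.26, adjusted p = 0.0434). Lipe, hormone-sensitive lipase, had a log2 difference of 0.64 (adjusted p = 0.0344), and these 3 of 7 tested adipocyte markers were the ones that passed (42.9%, against 3.24% of all genes). Car3 lost its call without ND 1, ND 3, HP 2, HP 3 or any HR library (adjusted p up to 0.132), and Lipe without ND 1, ND 3 or any HR library (up to 0.133).

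Genes of glucose metabolism moved in both directions. G6pc, the glucose-6-phosphatase that releases glucose, had 68.7, 77.5 and 83.1 FPKM in HR and 169, 124 and 224 in ND, without overlap (log2 difference -1.12, limma adjusted p = 0.0275). Ppp1r3g, a glycogen-targeting subunit of protein phosphatase 1, was low everywhere and lower in HR by 0.99 on the log2 scale, at 0.243, 0.215 and 0.141 FPKM in HR and 1.03, 1.69 and 1.498 in ND. It was 1 of 18 tested genes that reached 1 FPKM in ND libraries only. Ppp1r3g was thus tested only through the group in which it was highest, and its difference is given as a description. Slc37a4, the glucose-6-phosphate transporter of the ER, rose by 0.68, Tkfc, the triose kinase of fructose breakdown, by 0.64 and Ugp2, which makes UDP-glucose for glycogen, by 0.60 (adjusted p = 0.0447, 0.0455 and 0.0243). In all, 4 of 25 genes of glucose and fructose metabolism rose (16%, against 2.28% of all genes). The 2 that fell (8%, against 0.969%) include Ppp1r3g. The median log2 difference of the list was 0.07, against 0.01 over all genes tested. Pck1, which makes phosphoenolpyruvate for gluconeogenesis, had 615, 718 and 967 FPKM in HR and 1190.3, 917 and 1515 in ND, and these groups overlapped (-0.65, adjusted p = 0.16). G6pc lost its call without ND 1, ND 3 or any HR library (up to 0.0979), Slc37a4 without any 1 of the 9 libraries (up to 0.160), Tkfc without any ND or HR library or HP 2 (up to 0.141) and Ugp2 without ND 1, ND 2, HR 1 or HR 2 (up to 0.114). With quantile normalization 1 gene of the list rose and 2 fell, and after rescaling to the same sum 1 rose and 1 fell.

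Among 23 genes of insulin and nutrient signalling, 1 rose (4.35%, against 2.28% of all genes) and 3 fell (13%, against 0.969%), at a median of -0.01. The largest fall was that of Lepr (ENSMUSG00000057722), the leptin receptor. Lepr had 1.301, 0.464 and 0.488 FPKM in HR, 0.862, 0.886 and 0.689 in HP and 13.99, 7.81 and 12.7 in ND. All 3 HR libraries lay below every ND library (log2 difference -2.83, SE 0.22, limma adjusted p = 0.000151), while HR and HP overlapped (-0.08, adjusted p = 0.833). FPKM of a gene does not separate the long signalling receptor from its short forms. Igfbp1, an insulin-repressed binding protein of insulin-like growth factors, had 19.96, 16.5 and 21.96 FPKM in HR and 72.4, 43.2 and 106 in ND (-1.79, adjusted p = 0.0263). Sesn3, a nutrient-sensing stress protein, fell by 0.59, and Trib3, a pseudokinase that binds AKT, rose by 0.66 (adjusted p = 0.0449 and 0.0195). Lepr passed under every alternative, whereas Igfbp1 lost its call without ND 1, ND 3 or any HR library (up to 0.0979), Trib3 without ND 1 or any HR library (up to 0.0979) and Sesn3 without ND 1, ND 3, HP 1, HP 2 or any HR library (up to 0.161).

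Cholesterol synthesis and uptake was the gene list with the highest share of calls. Of 23 tested members 14 rose (60.9%, against 2.28% of all genes) and none fell, at a median log2 difference of 0.90 against 0.01 over all genes. All HR libraries lay above all ND libraries for 19 members, against 14.8% of all genes tested. Along the pathway, the members that rose included Hmgcs1 (1.13), which makes the precursor of mevalonate, Mvk (1.02), Idi1 (1.36) and Fdps (1.37), which turn it into farnesyl diphosphate, and Fdft1 (0.87) and Sqle (1.79), which make squalene and its epoxide. Below lanosterol they were Cyp51 (1.14), Msmo1 (2.17), Nsdhl (1.23) and Dhcr7 (0.90), given like the others as log2 differences, HR minus ND. Insig1, which holds SREBP in the ER when sterol is plentiful, rose by 1.64.

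Msmo1, a demethylase of sterols, had 60.5, 63.8 and 82.8 FPKM in HR, 55.95, 76.5 and 56.3 in HP and 12.1, 14.98 and 16.4 in ND, so that every HR library was above every ND library (SE 0.17, limma adjusted p = 0.000151). Sqle, an oxygen-dependent controlled step, had 12.5, 14.7 and 13.6 FPKM in HR and 3.599, 2.03 and 4.42 in ND (SE 0.25, adjusted p = 0.00447). Of the members that did not pass, Srebf2, the gene of SREBP2 itself, had a log2 difference of 0.66 (adjusted p = 0.0639), and Hsd17b7, a sterol ketoreductase, -0.05 (adjusted p = 0.915). Fdft1 lost its call without ND 1, HR 1 or HR 3 (up to 0.0657) and Dhcr7 without ND 1 (0.0503). Between 10 and 15 members passed when 1 library was left out. Against HP, 2 of the 23 members were higher in HR and 2 lower, beside 3.94% higher and 7.2% lower over all genes. Lss, which closes the sterol rings, was higher than in HP by 1.04 (adjusted p = 0.0365), and Fdps was lower (-0.82, adjusted p = 0.0241, lost without HP 2, HP 3, HR 2 or HR 3, up to 0.1002).

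**Figure D2:**
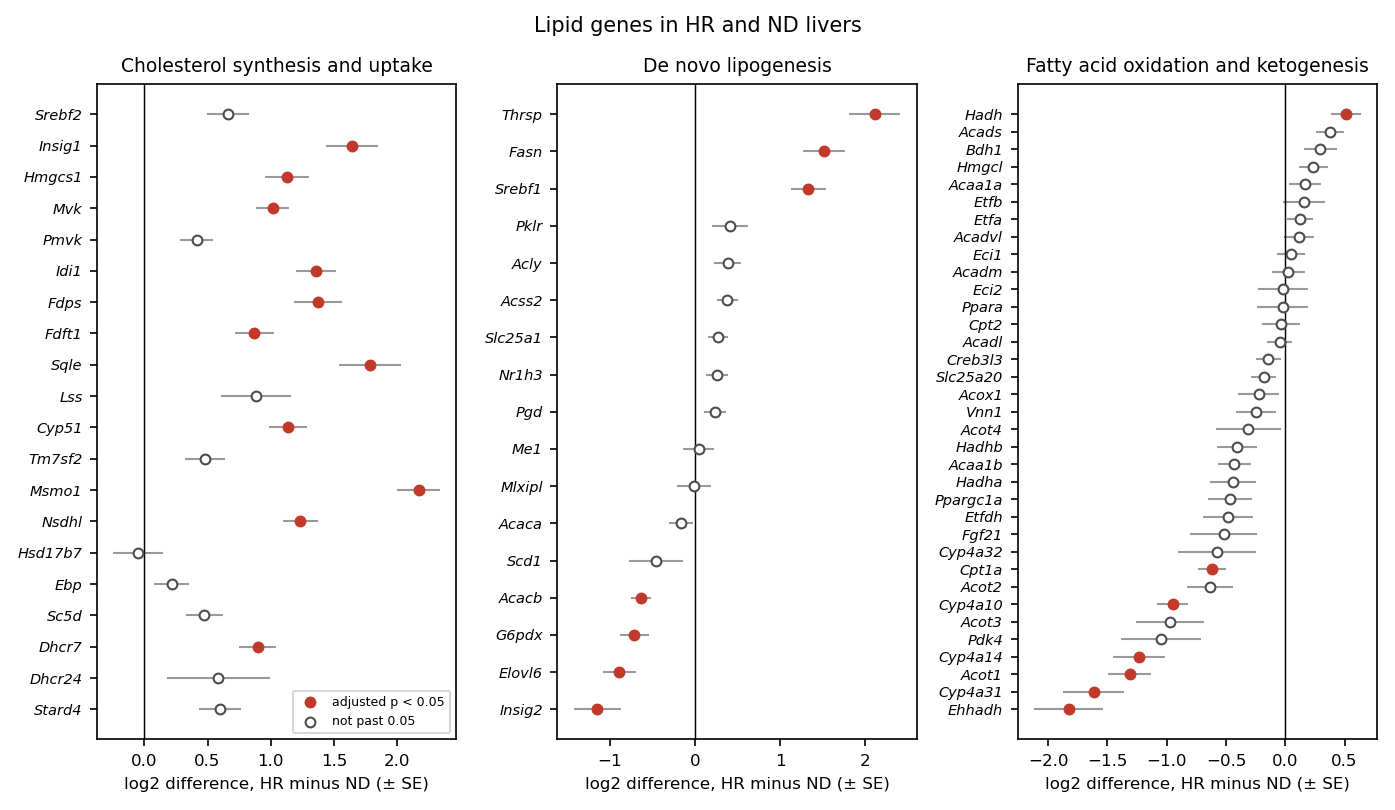
Log2 differences of HR minus ND with standard errors for the tested members reported here of the cholesterol, lipogenesis and fatty acid oxidation lists, filled where the adjusted p was below 0.05. Cholesterol genes run down the pathway and all but Hsd17b7 lie to the right of 0, lipogenesis genes split to the 2 sides, and the called oxidation genes other than Hadh lie to the left.

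Because these genes moved together, their promoters were read from RefSeq windows on GRCm38.p6 that run from 250 bases before to 50 after the start of the gene, and 15 of the 23 tested members matched a window. The letters CCAAT, which NF-Y binds beside SREBP in many sterol genes, were searched on both strands. They stood in 15 of these 15 windows, against 42.9% of the 8343 tested genes with a window and 37.4% of all 32851 windows. The same letters stood in 22 of 25 windows of the ER chaperone and unfolded protein response list described below. The sterol regulatory element was searched as TCACNCCAC, which does not overlap the letters CCAAT, and stood in 1 of the 15 windows, that of Hmgcs1, against 1.498% of tested genes and 1.24% of all windows. Of the 15, 8 belonged to genes that rose and 7 to genes that did not pass. The windows of Hmgcs1, Insig1 and Msmo1 are shown for how the boxes sit near the start, in capitals (ATTGG is CCAAT on the other strand, and TCACCCCAC in Hmgcs1 is the sterol element). They lie at chr13:119690101-119690400 (plus strand), chr5:28071162-28071461 (plus strand) and chr8:64733529-64733828 (minus strand).
Hmgcs1: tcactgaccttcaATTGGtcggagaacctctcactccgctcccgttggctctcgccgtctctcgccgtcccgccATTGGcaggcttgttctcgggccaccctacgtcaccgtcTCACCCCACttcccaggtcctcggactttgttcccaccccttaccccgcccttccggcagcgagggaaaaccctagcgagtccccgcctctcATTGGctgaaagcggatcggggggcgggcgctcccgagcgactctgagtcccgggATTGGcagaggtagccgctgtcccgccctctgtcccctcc
Insig1: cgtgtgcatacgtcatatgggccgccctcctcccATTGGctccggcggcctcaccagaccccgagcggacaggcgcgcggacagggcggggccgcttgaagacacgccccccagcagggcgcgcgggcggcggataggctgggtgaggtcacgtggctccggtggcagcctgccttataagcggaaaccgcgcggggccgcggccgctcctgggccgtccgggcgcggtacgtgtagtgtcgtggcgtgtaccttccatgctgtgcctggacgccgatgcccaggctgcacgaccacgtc
Msmo1: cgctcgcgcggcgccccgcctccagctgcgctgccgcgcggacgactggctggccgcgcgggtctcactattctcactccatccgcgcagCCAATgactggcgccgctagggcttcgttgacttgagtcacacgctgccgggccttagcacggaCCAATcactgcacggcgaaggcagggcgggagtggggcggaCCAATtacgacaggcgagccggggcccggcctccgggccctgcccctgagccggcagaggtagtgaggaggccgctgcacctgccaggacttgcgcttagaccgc
Hmgcs1 holds 4 CCAAT boxes, Msmo1 3 and Insig1 1. A match is a description of these letters and does not show binding.

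Fatty acid synthesis did not move as a block. Of 17 lipogenesis genes 3 rose (17.6%, against 2.28% of all genes) and 4 fell (23.5%, against 0.969%), at a median of 0.23. Thrsp, a lipogenic protein known as Spot 14, had 43.3, 51.03 and 68.9 FPKM in HR and 9.32, 19.3 and 8.59 in ND (log2 difference 2.11, limma adjusted p = 0.00494). Its partner Mid1ip1, which helps acetyl-CoA carboxylase assemble, had 5.82, 6.302 and 6.98 FPKM in HR and 1.602, 2.097 and 1.59 in ND, with tight groups (1.42, SE 0.13, adjusted p = 0.000508). Fasn, fatty acid synthase, had 63.4, 66.2 and 40.9 FPKM in HR and 15.5, 21.2 and 20.3 in ND, and Srebf1, the gene of SREBP1, 64.1, 54.9 and 48.5 and 18.8, 23.2 and 22.7. Neither pair of groups overlapped (Fasn 1.51, adjusted p = 0.0101, and Srebf1 1.33, adjusted p = 0.00778). Aacs, the cytosolic ligase that turns acetoacetate into acetyl units for lipid, had 10.9, 11.5 and 18.4 FPKM in HR and 1.74, 2.48 and 2.41 in ND (2.16, adjusted p = 0.00131).

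The 4 lipogenesis genes that fell were Insig2 (-1.15), the partner of Insig1, Elovl6 (-0.89), which elongates palmitate, G6pdx (-0.72), which supplies NADPH, and Acacb (-0.64), the carboxylase whose malonyl-CoA restrains CPT1. Elovl6 had 5.94, 7.62 and 5.11 FPKM in HR and 11.98, 12.6 and 12.3 in ND, without overlap (limma adjusted p = 0.0344). Scd1, the stearoyl-CoA desaturase, overlapped, at 812, 1481 and 1035 FPKM in HR and 924, 2015 and 1745 in ND (-0.46, adjusted p = 0.458), and Acly, ATP citrate lyase, had a log2 difference of 0.38 (adjusted p = 0.225). Of 13 desaturases and elongases 3 fell (23.1%, against 0.969% of all genes) and none rose, at a median of -0.26. Those that fell were Elovl6, Elovl5, which elongates polyunsaturated chains (-0.82, adjusted p = 0.0211), and Fads3, a desaturase (-1.03, adjusted p = 0.0362). Without ND 1 the lipogenesis list had 2 rises and no fall, without HR 1 or HR 3 it had 3 rises and no fall, and without ND 3 it had 3 rises and 1 fall. Fasn had an adjusted p of 0.0519 without ND 1. Elovl6 lost its call without any ND library, HR 1 or HR 3 (up to 0.117), Acacb without ND 1, HR 1 or HR 3 (up to 0.0952), G6pdx and Insig2 without most libraries (up to 0.1503 and 0.160), and Elovl5 and Fads3 without ND 1, ND 3 or any HR library (up to 0.103 and 0.135).

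Genes of PPAR alpha and fatty acid oxidation had more falls than rises, 6 against 1 among 36, at a median of -0.24. The falls were 16.7% of the list, against 0.969% of all genes, and the rise 2.78%, against 2.28%. Ehhadh, the bifunctional enzyme of peroxisomal oxidation, had 309, 351 and 242 FPKM in HR, 282, 219.6 and 263 in HP and 1612, 612 and 1197 in ND. HR lay below ND without overlap, and ND 2 was the lowest ND library for each of the 6 genes that fell (log2 difference -1.83, SE 0.29, limma adjusted p = 0.00936). The fatty acid omega-hydroxylases followed: Cyp4a14 had 1348, 1533 and 1496 FPKM in HR and 4395, 2425 and 3767 in ND (-1.23), Cyp4a10 1099, 1083 and 1002 and 2034, 1904 and 2224 (-0.95), and Cyp4a31 differed by -1.61 (adjusted p = 0.0159, 0.00434 and 0.00924). Cyp4a genes have near-identical copies among which reads can be split, so their separate values are uncertain. Acot1, a cytosolic acyl-CoA thioesterase with a similar caveat, had 71.9, 60.2 and 57.1 FPKM in HR and 173, 149 and 151 in ND (-1.31, adjusted p = 0.00447). Cpt1a, which admits fatty acids to mitochondria, had 166, 183 and 160.1 FPKM in HR and 262, 254 and 265 in ND (-0.62, adjusted p = 0.0177).

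The oxidation gene that rose was Hadh, a short-chain dehydrogenase (0.51, limma adjusted p = 0.0496). Ppara itself had 69.5, 53.9 and 51.5 FPKM in HR and 66.7, 40.96 and 73.9 in ND (-0.02, adjusted p = 0.965). Fgf21, a fasting hormone and PPAR alpha target, had 12.5, 5.59 and 4.75 FPKM in HR and 13.03, 8.98 and 9.83 in ND (-0.52, adjusted p = 0.339). In both genes the groups overlapped. Slc16a1, the monocarboxylate carrier for ketones and lactate, fell by 1.29, at 12.2, 15.2 and 12.2 FPKM in HR and 48.6, 27.7 and 27.9 in ND (adjusted p = 0.014). Hadh lost its call without any 1 of the 9 libraries (up to 0.206) and with quantile normalization, Cpt1a without ND 1, ND 3, HR 1 or HR 3 (up to 0.0878), Cyp4a14 without ND 1, ND 3 or any HR library (up to 0.0752) and Slc16a1 without HR 1 or HR 3 (up to 0.0559), and the list then had 4 to 6 falls.

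Lipid storage changed in a few members. Of 24 lipid droplet and triglyceride genes 3 rose (12.5%, against 2.28% of all genes) and 1 fell (4.17%, against 0.969%), at a median of 0.14. Plin4, a droplet coat protein, had 19.8, 11.4 and 11.6 FPKM in HR, 31.5, 33.8 and 59.04 in HP and 4.36, 7.42 and 2.96 in ND, so that HR lay between the others without overlap (HR minus ND 1.4, limma adjusted p = 0.0371, and HR minus HP -1.46, adjusted p = 0.0182). Fitm1, an ER protein that partitions triglyceride into droplets, rose by 1.21 and Mgll, monoglyceride lipase, fell by 0.57 (adjusted p = 0.0223 and 0.0267). Cidec, which fuses droplets, had 32.7, 29.8 and 29.3 FPKM in HR, 71.8, 76.7 and 115 in HP and 55.04, 28.8 and 30.2 in ND. HR and ND overlapped (-0.24, adjusted p = 0.611), and HR lay below HP (-1.46, adjusted p = 0.00711). Cidea, another droplet fusion protein, had 3.05, 0.516 and 3.91 FPKM in HR, 15.4, 7.66 and 6.11 in HP and 0.2598, 0.113 and 0 in ND, did not pass against ND (1.47, adjusted p = 0.0772) and was lower than in HP (-1.69, adjusted p = 0.0254). Both Plin4 and Cidea lost the call against HP in part of the fits with 1 library left out (without HP 2, HP 3, HR 2 or HR 3, up to 0.0728, and without HP 1, HP 2 or HR 2, up to 0.0733). Against HP, 6 of the 24 genes were lower in HR and none higher, beside 7.2% lower and 3.94% higher over all genes. After rescaling to the same sum 4 were lower and 1 higher.

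The droplet coat gene Plin2 (-0.37, limma adjusted p = 0.357), the acyltransferase gene Mogat1 (0.64, adjusted p = 0.272) and Pparg, the gene of an adipogenic nuclear receptor (0.49, adjusted p = 0.194), did not pass against ND. Cd36, a fatty acid translocase, was the 1 of 17 uptake genes to pass (5.88%, against 3.24% of all genes), with 63.9, 74.2 and 67.4 FPKM in HR and 36.4, 52.2 and 37.4 in ND (0.71, adjusted p = 0.0375). Apoa4, an apolipoprotein of triglyceride-rich particles, had 176, 157 and 121 FPKM in HR, 314, 694 and 1058 in HP and 511, 389 and 479 in ND. HR was below all libraries of the other groups (HR minus ND -1.6, adjusted p = 0.0345, and HR minus HP -2.03, adjusted p = 0.0083). Apom, the carrier of sphingosine-1-phosphate, fell against ND by 0.79 and was above HP by 0.91 (adjusted p = 0.0344 and 0.0117). Apom and Apoa4 were the 2 of 23 apolipoprotein and assembly genes that fell (8.7%, against 0.969% of all genes). Calls against ND were lost without ND 1, ND 3 or any HR library for Plin4, Mgll, Cd36 and Apoa4, without ND 1, ND 3, HR 1 or HR 3 for Fitm1 and without any ND library, HR 1 or HR 2 for Apom, with adjusted p up to 0.1503. Against HP, Apom had an adjusted p of 0.0554 without HP 2. Of 22 bile acid genes none passed in this fit, in which 3.24% of all genes did (2107 of all genes had an unadjusted p under 0.05). Cyp7a1, the rate-limiting enzyme of bile acid synthesis, had 37.7, 73.3 and 88.2 FPKM in HR and 95.2, 135 and 117 in ND (-0.86, adjusted p = 0.138). Cyp8b1, the sterol 12-alpha-hydroxylase, had a log2 difference of -0.38 (adjusted p = 0.123).

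Protein folding in the ER had the highest share of rises after cholesterol among lists other than markers, 32.1% against 2.28% of all genes. Of 28 chaperones and unfolded protein response genes 9 rose and 1 fell, at a median of 0.62. For 16 members every HR library lay above every ND library, against 14.8% of all genes tested. Manf, a secreted ER stress factor, had 81.2, 111 and 91.8 FPKM in HR, 81.6, 75.95 and 52.6 in HP and 36.2, 28.8 and 35.03 in ND, which left HR and ND far apart (1.48, SE 0.18, limma adjusted p = 0.00296). Sdf2l1, a chaperone cofactor, had 10.03, 13.2 and 10.01 FPKM in HR and 4.703, 2.28 and 3.103 in ND (1.5, adjusted p = 0.0306). Calr, the calcium-binding lectin chaperone calreticulin, had 411, 358 and 316 FPKM in HR and 214, 176 and 202 in ND (0.87, adjusted p = 0.0119), and the disulfide isomerases Pdia3, Pdia4 and Pdia6 rose by 0.76, 0.73 and 0.64. Dnajb11, a cochaperone of BiP, rose by 0.72. Xbp1, the gene of the transcription factor named above, had 148, 178 and 128 FPKM in HR, 94.2, 83.9 and 78.6 in HP and 92.4, 80.7 and 90.9 in ND, and HR was higher than ND (0.76, adjusted p = 0.0165) and than HP (0.81, adjusted p = 0.00843).

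Trib3, named above, also belongs to this list. Hspa5, the gene of the master chaperone BiP, had 263, 406 and 304 FPKM in HR and 239, 157 and 207 in ND, without overlap, and did not pass (0.69, limma adjusted p = 0.0996). In the PERK branch, Atf4 had a log2 difference of 0.19 (adjusted p = 0.537), and Ddit3, the gene of CHOP, 0.10 (adjusted p = 0.703), and neither passed. Atf5, a transcription factor of that branch, was the member that fell (-0.98, adjusted p = 0.0172). The count of this list rested on the HR libraries and ND 1, and was 2 without HR 2, 3 without HR 1, 5 without HR 3 and 4 without ND 1. Manf passed in every fit with 1 library left out, Calr had an adjusted p of 0.0508 without HR 1, Sdf2l1 lost its call without ND 2, ND 3 or any HR library (up to 0.101), Pdia4 and Pdia6 without any ND or HR library (up to 0.107 and 0.120), Pdia3 without ND 1, HR 1 or HR 2 (up to 0.0891), Dnajb11 without ND 3 or any HR library (up to 0.0774), Xbp1 without ND 1, HR 1 or HR 2 (up to 0.0634) and Atf5 without ND 1 or HR 2 (up to 0.0878). Against HP, 5 of the 28 were higher in HR and 1 lower, beside 3.94% higher and 7.2% lower over all genes. After rescaling to the same sum 10 were higher. In the cytosol, 1 of 18 heat shock genes fell (5.56%, against 0.969% of all genes) and none rose. It was Hspa1b, an inducible HSP70, with 3.94, 7.29 and 4.82 FPKM in HR and 15.7, 21.03 and 29.3 in ND (-1.85, adjusted p = 0.00447), whose near-identical copy Hspa1a can share its reads.

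Windows of 25 of the 28 ER genes were matched in RefSeq. The ER stress element, searched on both strands as CCAAT followed after 9 bases by CCACG and so overlapping a CCAAT box, stood in 9 of the 25, against 0.180% of tested genes and 0.119% of all windows. Of those 9 genes, Calr and Pdia6 passed and Hspa5, Hsp90b1, Canx, Dnajc3, Creld2, Syvn1 and Derl3 did not. The windows of Calr at chr8:84846882-84847181 (minus strand) and Pdia6 at chr12:17266339-17266638 (plus strand) show it in capitals, as its reverse complement in Calr and as such in Pdia6.
Calr: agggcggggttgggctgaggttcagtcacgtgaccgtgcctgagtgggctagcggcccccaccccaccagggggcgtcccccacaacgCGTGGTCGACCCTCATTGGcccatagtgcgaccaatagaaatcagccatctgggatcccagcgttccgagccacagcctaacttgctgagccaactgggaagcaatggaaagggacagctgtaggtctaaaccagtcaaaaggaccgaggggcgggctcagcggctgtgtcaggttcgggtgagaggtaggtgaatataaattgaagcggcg
Pdia6: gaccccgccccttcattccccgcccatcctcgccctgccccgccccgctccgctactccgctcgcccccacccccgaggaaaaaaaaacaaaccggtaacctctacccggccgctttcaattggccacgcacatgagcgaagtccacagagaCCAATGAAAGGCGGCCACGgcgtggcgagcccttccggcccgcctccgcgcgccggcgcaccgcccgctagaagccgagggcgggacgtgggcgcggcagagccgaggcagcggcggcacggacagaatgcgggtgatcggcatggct
In both it lies upstream of the start.

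**Figure D3:**
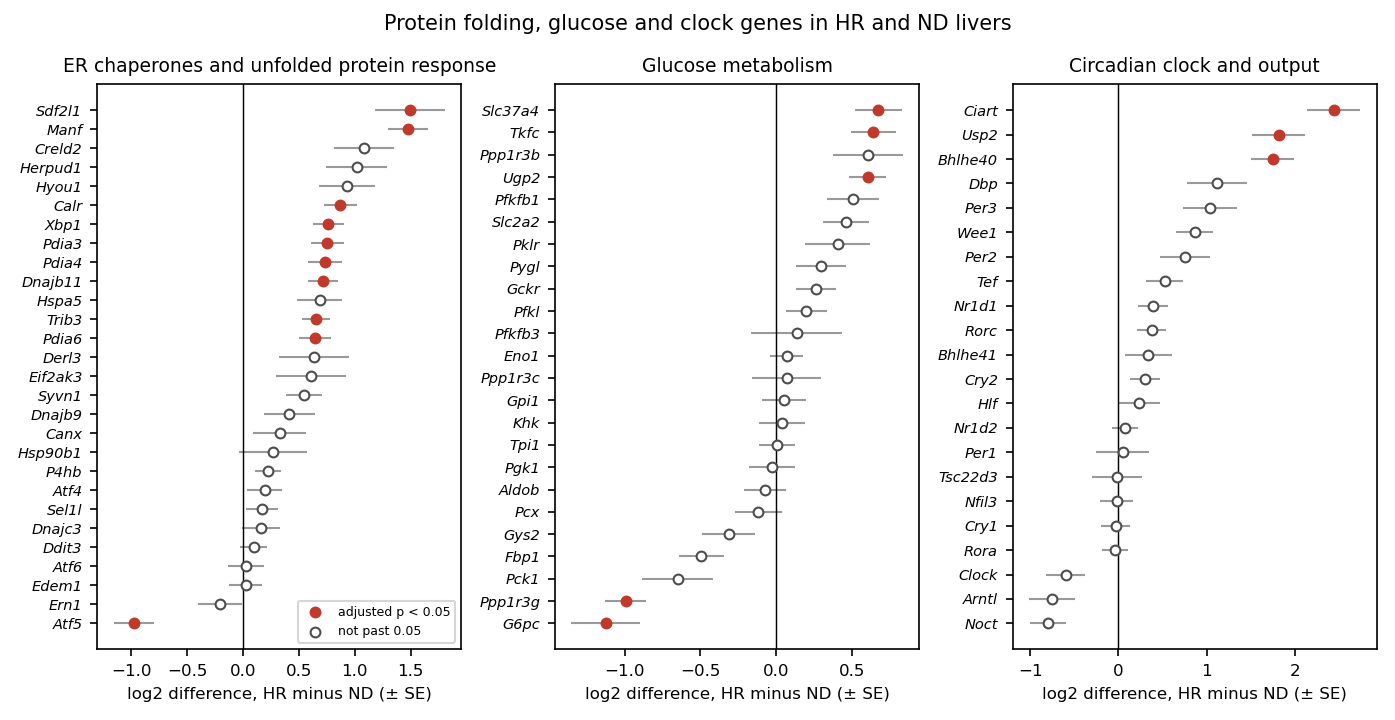
Log2 differences of HR minus ND with standard errors for the tested members reported here of the ER, glucose and clock lists, filled where the adjusted p was below 0.05. Most ER genes lie to the right of 0 with Atf5 alone called to the left, and Ciart, Usp2 and Bhlhe40 lead the clock list.

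The clock list had 3 rises (13.6%, against 2.28% of all genes) and no fall among 22 genes, at a median of 0.32. Ciart, a repressor of CLOCK and BMAL1 also called Chrono, had 10.7, 11.4 and 15.4 FPKM in HR, 4.93, 8.702 and 6.74 in HP and 0.445, 2.58 and 1.88 in ND. HR lay above ND without overlap (log2 difference 2.44, SE 0.30, limma adjusted p = 0.00296), and also above HP, though that difference did not pass (0.81, adjusted p = 0.101). Usp2, a clock-controlled deubiquitinase, had 8.96, 11.96 and 15.6 FPKM in HR and 1.09, 4.36 and 3.399 in ND (1.81, adjusted p = 0.011), and Bhlhe40, the E-box repressor DEC1, 24.2, 31.8 and 34.03 and 5.11, 9.799 and 10.6 (1.75, adjusted p = 0.00447). The core genes did not pass. Dbp, an output factor that peaks at the end of the day, had 59.6, 46.9 and 41.8 FPKM in HR and 11.3, 29.7 and 31.3 in ND without overlap (1.12, adjusted p = 0.107), Per2 0.75 (adjusted p = 0.171), and Arntl, the gene of BMAL1, 0.953, 0.876 and 1.23 and 4.12, 2.02 and 1.51 FPKM (-0.75, adjusted p = 0.149). The hour of collection is not in the labels, and its part in these values was not tested. The E-box CACGTG, which CLOCK and BMAL1 bind, stood in 5 of 18 clock windows in RefSeq, against 12.2% of tested genes and 7.15% of all windows, and Ciart holds 3 of them at chr3:95882179-95882478 (minus strand), in capitals.
Ciart: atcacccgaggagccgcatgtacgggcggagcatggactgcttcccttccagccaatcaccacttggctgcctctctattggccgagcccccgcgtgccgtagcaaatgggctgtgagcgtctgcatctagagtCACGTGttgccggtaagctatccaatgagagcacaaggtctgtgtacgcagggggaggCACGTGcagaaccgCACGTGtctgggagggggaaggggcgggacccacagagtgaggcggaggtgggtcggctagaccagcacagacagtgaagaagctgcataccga
Rgs16, a regulator of G protein signalling, had 54.01, 48.3 and 31.4 FPKM in HR and 3.801, 3.88 and 25.7 in ND (2.38, SE 0.55, adjusted p = 0.0446). ND 3 lay near the HR values, and the call was lost without ND 1, ND 2, HP 1, HP 2 or any HR library (up to 0.163).

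Secreted factors divided. Among 27 hepatokines and regulators 3 rose (11.1%, against 2.28% of all genes) and 2 fell (7.41%, against 0.969%), at a median of 0.05. Gdf15, a stress-induced hormone that lowers appetite, had 6.83, 7.02 and 7.42 FPKM in HR, 37.9, 25.97 and 25.8 in HP and 1.09, 1.05 and 1.92 in ND. The 3 groups were apart, with HR above ND (1.8, SE 0.18, limma adjusted p = 0.000862) and below HP (-1.91, SE 0.18, adjusted p = 0.00062). Tsku, tsukushi, a liver-secreted proteoglycan, had 45.2, 52.1 and 65.5 FPKM in HR and 5.71, 14.3 and 12.99 in ND (2.28, adjusted p = 0.00296). Lect2, a hepatokine linked to insulin resistance in muscle, rose by 0.91 and lay below HP by 0.85 (adjusted p = 0.0286 and 0.0197). Igfbp1, given above, and Fst, follistatin, which binds activins, were the 2 that fell (Fst -0.84, adjusted p = 0.00924). Lect2 lost its call against ND without ND 1, ND 3 or any HR library (up to 0.119), and against HP without HP 2, HR 2 or HR 3 (up to 0.0851).

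Acute-phase genes gave 1 call, which is 3.7% of the list and near the 3.24% of all genes that passed. Of 27, Saa4, a constitutive serum amyloid, was the 1 that rose, with 106, 135 and 136 FPKM in HR and 34.01, 52.5 and 47.9 in ND (1.48, limma adjusted p = 0.0019). Saa1, an inducible serum amyloid, had 29.6, 17.2 and 50.4 FPKM in HR, 102, 140.5 and 118 in HP and 26.9, 30.8 and 22.97 in ND, and Lcn2, lipocalin 2, 3.51, 2.15 and 5.23, 12.4, 38.5 and 33.2 and 1.12, 2.64 and 1.31. For these genes HR overlapped ND (0.14, adjusted p = 0.831, and 0.77, adjusted p = 0.295) and lay below every HP library (-1.97 and -2.56, adjusted p = 0.00522 and 0.00522). Of 15 tested cytokine, chemokine and receptor genes 2 rose (13.3%, against 2.28% of all genes) and 1 fell (6.67%, against 0.969%). Cxcl1, a chemokine for neutrophils, had 7.95, 9.04 and 8.59 FPKM in HR and 0.829, 1.76 and 3.18 in ND (1.78, adjusted p = 0.00408), beside summed neutrophil markers of 2.86 to 6.71 FPKM in HR and 2.13 to 2.29 in ND, whose part in it was not tested. Il1r1, the interleukin-1 receptor, had 11.5, 13.6 and 13.8 FPKM in HR and 3.73, 5.92 and 5.66 in ND (1.21, adjusted p = 0.00408). Cxcl12, a chemokine of stromal and endothelial cells, fell by 0.55 (adjusted p = 0.0441, lost without any 1 of the 9 libraries, up to 0.146), beside the lower endothelial sums given above, whose part in it was not tested. None of 29 interferon, 8 MHC class II or 21 coagulation genes passed in the limma fit, at medians of -0.08, -0.53 and 0.18. At the 3.24% of all genes that passed, lists of these sizes can hold no call. Cfd was the 1 of 26 complement genes to pass, and its 3.85% is near that share.

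Detoxifying enzymes rose where they passed. Of 31 glutathione and Nrf2 genes 5 rose (16.1%, against 2.28% of all genes) and 0 fell, with a median of 0.38. Gsta2, an alpha-class glutathione transferase, had 10.8, 14.3 and 16.99 FPKM in HR and 3.89, 4.703 and 4.24 in ND, and the theta-class Gstt3 58.8, 58.98 and 73.3 and 15.7, 31.2 and 15.3. Both pairs of groups were apart (Gsta2 1.49, limma adjusted p = 0.00276, and Gstt3 1.64, adjusted p = 0.00447). Gsta4, which clears lipid aldehydes, rose by 0.89, Gstt1 by 0.86 and Gsta3 by 0.85 (adjusted p = 0.00345, 0.0261 and 0.0371). The classic Nrf2 targets Nqo1 and Gclc had log2 differences of 0.66 and 0.17 (adjusted p = 0.0772 and 0.655). Of 24 xenobiotic genes 3 rose (12.5%, against 2.28% of all genes) and none fell. Cyp2a5, a coumarin hydroxylase, had 718, 591 and 712 FPKM in HR, 591, 621 and 377 in HP and 32.01, 224 and 76.6 in ND (HR minus ND 3.01, SE 0.51, adjusted p = 0.0123). ND spread widely, with ND 2 several times ND 1, and still lay below every HR library. The near-identical Cyp2a4 had 1.19, 1.05 and 0.761 FPKM in HR, 2.48, 16.4 and 27.5 in HP and 0.0820, 0.368 and 0 in ND and did not pass against ND (0.81, adjusted p = 0.473), and reads of Gsta and Cyp2a copies can be split among them. Ces1g, a carboxylesterase, rose by 1.02 (adjusted p = 0.0156, lost without ND 1, ND 3, HR 2 or HR 3, up to 0.0624), Ugt1a6b, a glucuronidating enzyme, by 0.49 (adjusted p = 0.0491, lost in every such fit but that without HP 2, up to 0.161), Gstt1 lost its call without ND 1, ND 3, HR 1 or HR 3 (up to 0.118), and Gsta3 without ND 1, ND 3 or any HR library (up to 0.1503).

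**Figure D4:**
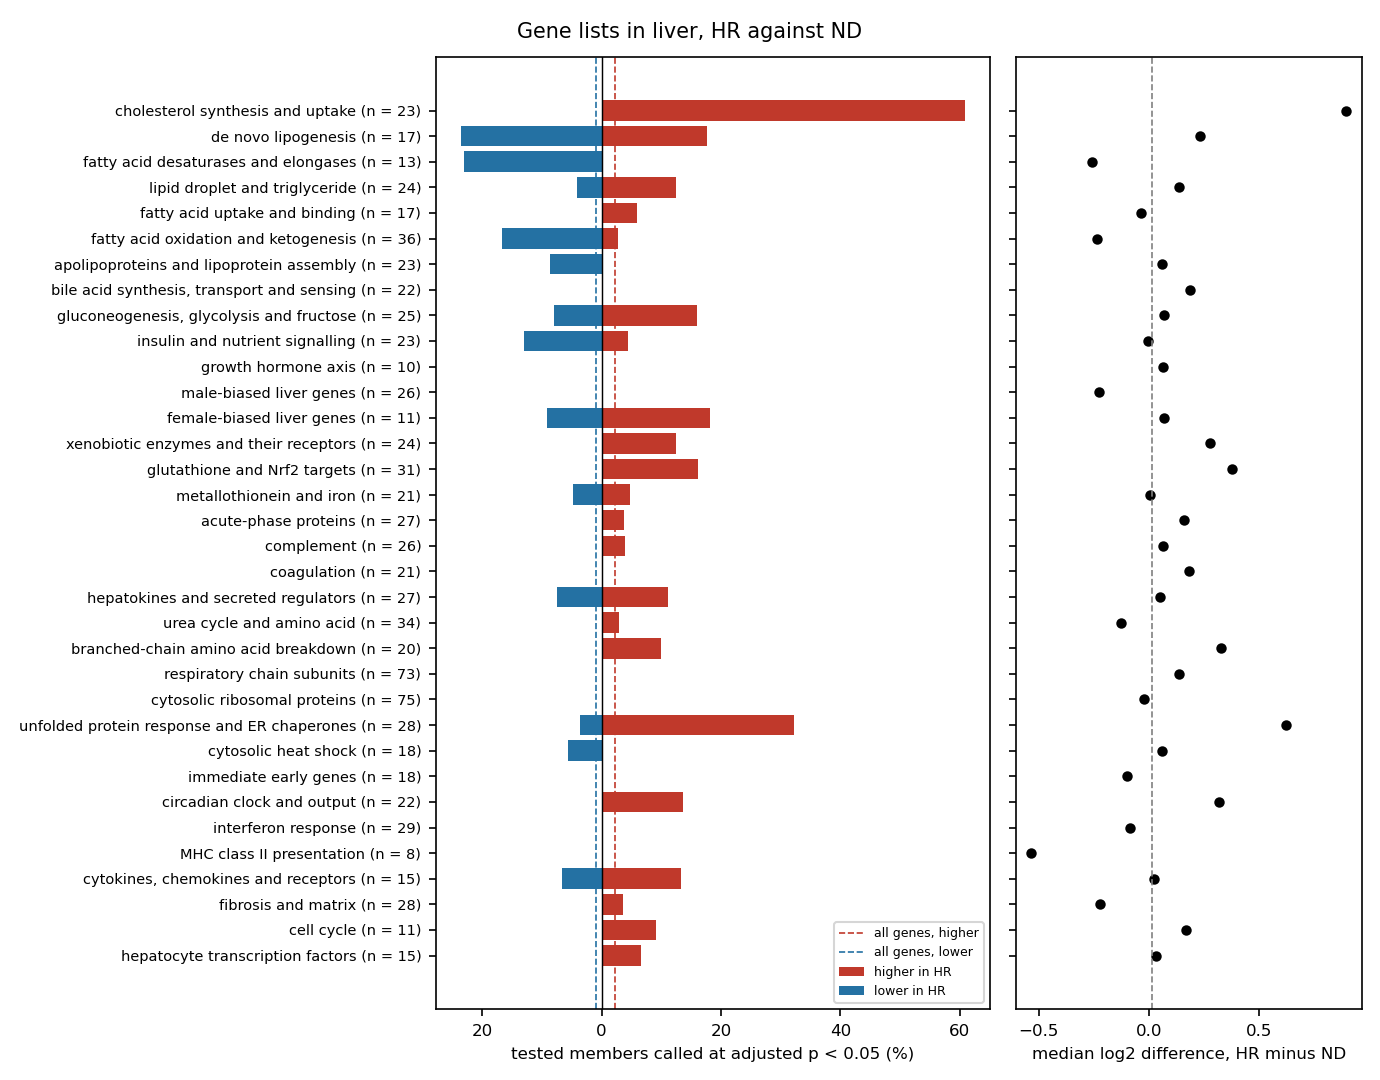
Share of tested members called higher (right) or lower (left) in HR than ND for 34 gene lists, with dashed lines for the shares over all genes tested, and the median log2 difference of each list in the right panel. Cholesterol synthesis and uptake stands at 60.9% higher and the ER list at 32.1%, while respiratory chain, ribosomal, bile acid, male-biased and interferon genes have no bar.

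Among genes outside these groups, Hhex, a homeobox factor of liver development, had 13.1, 11.6 and 13.3 FPKM in HR and 62.8, 45.4 and 42.4 in ND (-1.89, SE 0.18, limma adjusted p = 0.000697). Lamb3, a chain of the basement membrane protein laminin, had the smallest p of all genes, with 5.09, 4.92 and 4.59 FPKM in HR, 5.77, 6.01 and 6.33 in HP and 17.96, 17.2 and 18.5 in ND (-1.69, SE 0.10, adjusted p = 5.45e-05). Within each of these groups Lamb3 differed by little more than 1 FPKM. Tor3a, an interferon-inducible torsin, fell by 1.49 and Tff3, a trefoil peptide of mucosa, by 1.28 (adjusted p = 0.00469 and 0.0452). Tff3 lost its call without any ND or HR library or HP 3 (up to 0.134). Lgals1, galectin 1, which stromal and immune cells express, was the 1 of 28 fibrosis and matrix genes to pass (3.57%, near the 3.24% of all genes), with 39.97, 33.9 and 46.7 FPKM in HR, 84.7, 143 and 133 in HP and 5.59, 20.6 and 7.31 in ND (1.95, adjusted p = 0.0185, lost without ND 1, ND 3, HR 1 or HR 3, up to 0.0766). The median of that list was -0.22, beside the stellate cell sums given above. Ccnd1, cyclin D1, was the 1 of 11 tested cell cycle genes to pass, which is 9.09% against 3.24% of all genes (1.1, adjusted p = 0.0136, lost without ND 1, HR 2 or HR 3, up to 0.0694).

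Of the urea cycle and amino acid list 2.94% of members rose, and of the branched-chain list 10%, against 2.28% of all genes. Prodh, proline dehydrogenase, was the 1 of 34 urea cycle and amino acid genes that passed, with 80.1, 91.03 and 126 FPKM in HR and 35.9, 58.1 and 28.3 in ND (1.3, limma adjusted p = 0.0174, lost without ND 1, ND 3, HR 2 or HR 3, up to 0.0826). Of 20 genes that break down branched-chain amino acids, Ivd, which oxidizes isovaleryl-CoA from leucine, rose by 0.59, and Hibadh, of valine breakdown, by 0.51, and none fell. The list had a median of 0.33. In 10 members every HR library lay above every ND library, against 14.8% of all genes tested. Ivd had 146, 167 and 171 FPKM in HR, 95.7, 97.5 and 88.1 in HP and 104, 109.7 and 106 in ND, and HR was above HP as well (0.77, adjusted p = 0.00404). Against ND, Ivd lost its call without ND 1, ND 3, HR 2 or HR 3 (up to 0.0889) and Hibadh without any ND or HR library (up to 0.116). In iron handling, Steap4, a metalloreductase, rose by 1.06 and Bmp2, an inducer of hepcidin made by endothelial cells, fell by 0.78 (adjusted p = 0.0334 and 0.0263). Steap4 lost its call without ND 1, ND 2, HR 2 or HR 3 (up to 0.133) and Bmp2, beside the lower endothelial sums, without ND 1, ND 3, HR 1 or HR 2 (up to 0.0900). None of 73 respiratory chain and 75 ribosomal protein genes passed against ND, where 3.24% of all genes did, at medians of 0.13 and -0.02.

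Many male-biased genes were higher in HR than HP. In male mice, pulsed growth hormone keeps male-biased liver genes on and female-biased genes off. Of 26 male-biased genes none passed between HR and ND by limma, where 3.24% of all genes did, at a median of -0.23. Between HR and HP 14 were higher in HR and none lower, at a median of 1.07 against 0.03 over all genes. Over all genes, 419 were higher in HR than HP (3.94% of those tested) and 766 lower (7.2%), 1185 in all (11.1%). The comparison with HP uses the same HR libraries as that with ND. After libraries were rescaled to the same sum, 785 were higher and 421 lower and the median over all genes moved to 0.19, and the count was 229 without HP 2, 468 without HP 3, 243 without HR 2 and 456 without HR 3. Skeletal muscle markers summed to 0.383, 125 and 26.5 FPKM in HP 1 to 3 and to at most 0.736 in HR, and their part in these differences was not tested.

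Hsd3b5, a male-specific steroid reductase of liver, had 82.04, 54.6 and 56.1 FPKM in HR, 2.58, 0.185 and 0.124 in HP and 54.5, 49.1 and 79.96 in ND. HR and ND overlapped (0.08, SE 0.38, limma adjusted p = 0.932), and HR lay far above HP (5.25, SE 0.38, adjusted p = 0.000146). The same order held for Serpina1e, an alpha-1 antitrypsin copy, with 662, 650.4 and 1003 FPKM in HR, 109.9, 80.5 and 26.5 in HP and 1126, 507 and 1148 in ND (HR minus HP 3.59, adjusted p = 0.00277). Slco1a1, an organic anion transporter, had 98.4, 106 and 92.1 FPKM in HR, 42.9, 6.93 and 2.16 in HP and 129.6, 95.03 and 217 in ND (3.27, adjusted p = 0.0188). The urinary protein genes Mup7 and Mup19 were higher in HR than HP by 3.46 and 2.87 (adjusted p = 0.0338 and 0.031), and Mup and Serpina1 copies are near-identical, so reads may be split among them. In each of these 5 genes HP 1 was the HP library closest to HR. The calls of Slco1a1 and Mup7 were lost without HP 2, HR 2 or HR 3 (up to 0.0777 and 0.106) and that of Mup19 without HP 2, HP 3 or any HR library (up to 0.107).

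**Figure D5:**
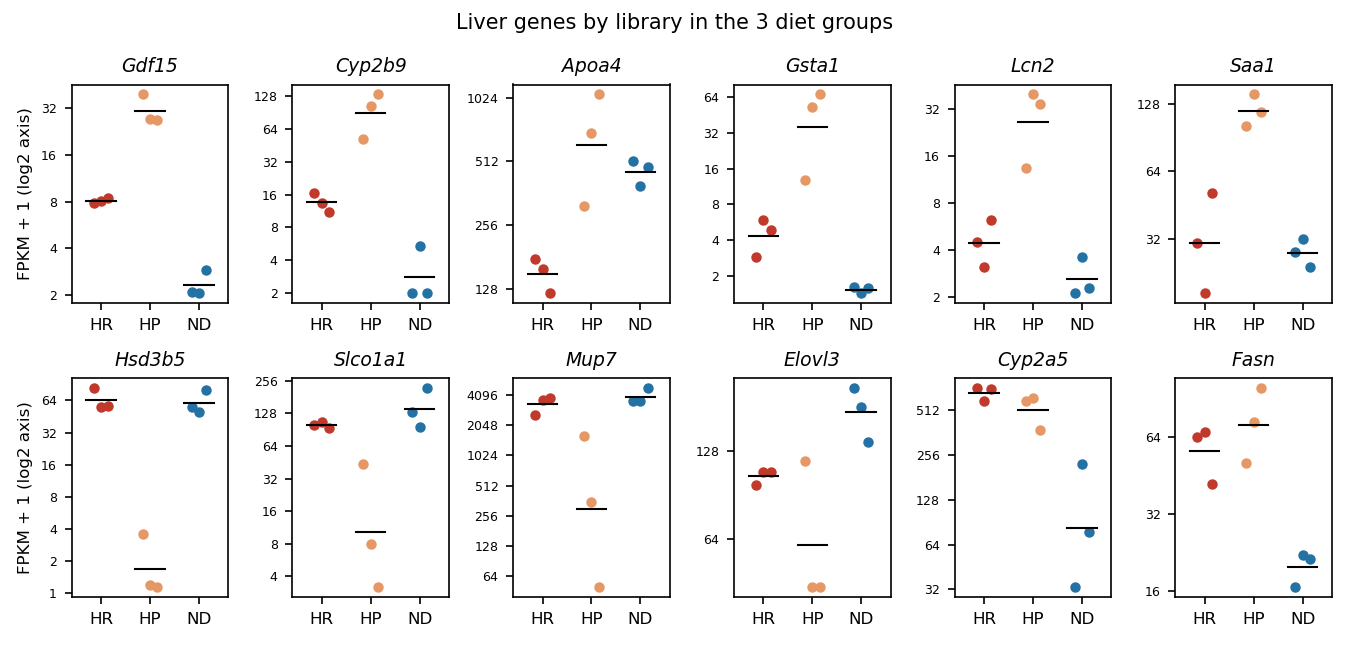
FPKM + 1 on a log2 axis for 12 genes in the 3 HR, 3 HP and 3 ND liver libraries, with each point a library and each line the mean on the log scale. HR lies between the other groups for Gdf15 and Cyp2b9, below both for Apoa4, with ND and away from HP for Saa1, Hsd3b5 and Mup7, and with HP and away from ND for Cyp2a5 and Fasn.

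On the female-biased side, Cyp2b9, a female-predominant P450, had 15.6, 12.5 and 10.1 FPKM in HR, 50.5, 103 and 132 in HP and 0.999, 4.42 and 0.966 in ND. The 3 groups did not overlap, with HR above ND (2.29, SE 0.41, limma adjusted p = 0.0151) and below HP (-2.73, SE 0.41, adjusted p = 0.00522). The call against ND was lost without ND 1, ND 3, HR 1 or HR 2 (up to 0.0729). Of 11 female-biased genes, Cyp2b9 and Cyp2a5 rose (18.2%, against 2.28% of all genes) and Cyp4a14 fell (9.09%, against 0.969%) against ND. Against HP, 2 of the 11 were lower in HR and none higher, at a median of -0.19, beside 7.2% lower over all genes. Gsta1, Scand1, Ly6d and Wfdc2 were named for their large differences from HP, not as female-biased genes. Gsta1, a glutathione transferase, had 1.87, 4.89 and 3.84 FPKM in HR, 11.8, 51.5 and 66.5 in HP and 0.593, 0.413 and 0.5803 in ND, did not pass against ND (1.51, adjusted p = 0.131) and was below HP (-3.04, adjusted p = 0.00713). Scand1, a SCAN-domain protein, had 0.642, 0.429 and 0.543 FPKM in HR, 12.2, 23.5 and 14.4 in HP and 0.7296, 0.2104 and 0.203 in ND, with HR at the level of ND (HR minus HP -3.48). It was 1 of 26 tested genes that reached 1 FPKM in no HR and no ND library. Scand1 was thus tested only through the group in which it was high, and its difference is given as a description. Ly6d, a surface protein of the Ly6 family, and Wfdc2, a secreted protease inhibitor, differed from HP by -3.04 and -2.86 (adjusted p = 0.00721 and 0.00329) and from ND by -0.18 and -0.29 (adjusted p = 0.883 and 0.727). Of the growth hormone axis none of 10 genes passed against ND, where 3.24% of all genes did. Socs2, which damps the receptor, had 7.55, 3.58 and 8.05 FPKM in HR and 41.6, 17.001 and 10.5 in ND (-1.55, adjusted p = 0.0706).

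Other lists with many calls between HR and HP were those of energy and translation, beside 3.94% higher and 7.2% lower over all genes. Respiratory chain genes were lower in HR than HP for 39 of 73 and higher for none, at a median of -0.59, and cytosolic ribosomal protein genes for 23 of 75, at -0.48. After rescaling to the same sum these were 34 lower and 1 higher, and 20 lower and 1 higher. The 13 mitochondrially encoded genes took 25.7 to 27.9% of summed FPKM in HR, 30.4 to 35.3% in HP, where mt-Co1 was listed at 0 in HP 3, and 27.7 to 33.2% in ND. This share was lower in every HR than in every HP library, and its part in the differences of both lists was not tested. Of 28 fibrosis and matrix genes 15 were lower in HR than HP and 1 higher, at a median of -0.93, and 7 of 10 stellate cell and fibroblast markers were lower, beside sums of 111 to 179 FPKM in HR and 201 to 285 in HP. Of 34 urea cycle and amino acid genes 12 were higher in HR and none lower, at a median of 0.25. Cps1, which makes carbamoyl phosphate for urea, had 262, 416 and 441 FPKM in HR, 156, 102 and 152 in HP and 507, 453 and 598 in ND (HR minus HP 1.44, limma adjusted p = 0.0056).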

How the data were processed

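Expression was deposited by the authors as 1 table of FPKM for 18 libraries, made from mRNA by TruSeq chemistry after TRIZOL extraction per the labels' protocols. The submitters' processing notes name Cufflinks 2.1.1, STAR 2.4.0 and CASAVA 1.8.2. Which genome build, annotation and strand setting they ran with is not stated. GENCODE M21 named 22671 of 23474 identifiers, and RefSeq gave promoters.

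The test was limma 3.58.1 (R 4.3.3) with a variance trend on log2(FPKM + 1), using all 9 liver libraries in 1 fit, with groups from the sample titles and Benjamini-Hochberg adjustment at 0.05. The added 1 makes differences of low genes too small, and FPKM allows no counting interval. Of 45 gene lists from general knowledge, 11 hold cell markers. Members and lists were chosen with earlier results of these data known. Named genes were the 12 largest called differences each way (groups that did not overlap, higher mean 5 FPKM or more), the 6 smallest p, up to 5 each way for HR against HP, fixed genes, and up to 4 per list. Other named genes are list members or were picked after their values were seen. The scripts were tested on simulated data. Figures used matplotlib 3.10.9. Some members of the lists are counted but not reported here by name.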

Additional observations from a re-analysis of the deposited data

How the results depend on the processing

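Of the 345 genes called between HR and ND, 12 passed a test against a least log2 change of 0.5, and the counts were 200 with no filter on low values, 221 after rescaling to the same sum and 184 with the replicate number as a block. Same-numbered HR and ND libraries had deviations that correlated at -0.089, -0.348 and 0.016, and other-numbered ones at -0.265 to 0.314. With 3 libraries a group, these values cannot decide whether the numbers mark a shared day or batch, and the labels do not say. With the block, 19 named genes lost their call against ND, among them Apoa4, Elovl6, Cpt1a, Cd36, Plin4, Elovl5, Mgll, Ivd and Trib3. Leaving out 1 library gave 91 (without ND 1) to 349 (without ND 2) calls. Quantile normalization gave 184 higher and 124 lower, 59.7% higher against 70.1%. For HR against HP, 1185 calls became 580 with no filter and 34 against a least change of 0.5, with 229 (without HP 2) to 1424 (without HP 1) when 1 library was left out. Pseudocounts of 0.1 and 0.5, a filter of 5 FPKM, rescaling to the same median ratio, a length and GC correction, no variance trend and a fit of the compared groups alone kept both counts within 1.5 times.

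No named gene that passed changed sign under any alternative run. Of 75 that passed, 12 did so under every alternative (among them Cfd, Ciart, Tsku, Msmo1, Aacs, Lepr, Hhex, Lamb3, Gdf15, Saa4 and Mid1ip1), and 20 more under every one but the least change. Of the cholesterol genes 12 to 14 passed, and of the ER genes 7 to 11, under the alternatives other than that test and the fits with 1 library left out, in which 10 to 15 and 2 to 11 passed. List medians near 0, such as those of the glucose (0.07, and -0.02 with quantile normalization) and hepatokine lists (0.05 and -0.05), changed sign with scaling. Log2 differences rose with GC content (Spearman 0.1496) and fell with transcript length (-0.169) across genes. FPKM holds no counts, so what depth limits cannot be given beyond the relative depths.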

Other observations

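Some genes chosen after their values were seen stood above ND and HP alike, in comparisons that share the HR libraries. Spry4, an inhibitor of receptor tyrosine kinase signalling, had 2.71, 3.11 and 2.52 FPKM in HR, 1.09, 0.869 and 0.971 in HP and 0.857, 0.728 and 0.751 in ND (HR minus ND 1.09, limma adjusted p = 0.0019, and HR minus HP 0.93, adjusted p = 0.00277). Ido2, a tryptophan-degrading dioxygenase, had 24.99, 34.96 and 37.6 FPKM in HR, 22.5, 16.5 and 17.98 in HP and 14.2, 16.1 and 18.3 in ND (0.95, adjusted p = 0.0166, and 0.74, adjusted p = 0.0237). Map2k6, a kinase that activates p38, had 3.19, 4.62 and 3.9997 FPKM in HR, 1.79, 2.22 and 1.41 in HP and 0.6105, 1.15 and 1.89 in ND (1.19, adjusted p = 0.0141, and 0.81, adjusted p = 0.0332).

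In other genes 1 HR library stood apart from the other HR libraries. Hamp, the gene of hepcidin, which blocks iron export, had 43.1, 25.4 and 1522 FPKM in HR 1 to 3 and 474, 758 and 318 in ND 1 to 3, so that HR 3 lay above and the other HR libraries below every ND library (-2.01, SE 1.18, adjusted p = 0.379). Mt1, a metallothionein, had 386, 63.8 and 88.9 FPKM in HR and 87.4, 251 and 126 in ND (-0.11, adjusted p = 0.943), and Egr1, an immediate early gene, 23.7, 30.1 and 6.38 and 3.62, 4.48 and 5.83 (1.68, adjusted p = 0.076).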
